A study of Homo sapiens with 3 samples.

Results

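The genes described here are 10 classical oestrogen targets, GREB1, PDZK1, CA12, STC2, CTSD, SIAH2, IGFBP4, MYB, NRIP1 and CXCL12, followed in the established human breast cancer line MDA-MB-231. A gene was included by its symbol alone, and every probe set that the platform annotation pairs with that symbol and no other was used. All 10 genes were found, with 22 probe sets, among 19775 genes and 41097 probe sets paired with 1 symbol. Trefoil factor genes, which are also oestrogen targets, are not covered. The 3 arrays, 1 a group, hold total RNA of cells that spent 4 h in 10% serum stripped of steroids with charcoal and were then treated for 3 h. The vehicle group received 0.1% ethanol, the estradiol group 1 µM of the hormone, and the ERα17p group 1 µM of a short peptide of the oestrogen receptor alpha. The sources used here do not name the peptide's solvent, and all groups share the steroid-poor preincubation. The comparisons ask whether the hormone or the peptide alters early gene expression in this line, and how the peptide differs from the hormone.

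In cells with the oestrogen receptor alpha (ERα), estradiol binds this nuclear receptor, which then occupies oestrogen response elements in DNA directly or joins other factors such as Sp1 and AP-1 at their own sites. The genes described here are known mainly from hormone-responsive, ERα-positive breast cancer cells, where estradiol raises their transcripts, some within hours. MDA-MB-231 is usually classed as ERα-negative, and oestrogen signalling there has been ascribed to other receptors, among them the membrane receptor GPER1.

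The values are RMA values on a log2 scale, in which each probe set had been centred on a level of unknown origin, called the reference level here. A value of 0 is that level, a positive value lies above it, and the levels of different genes cannot be compared. The files carry no signal over background, so a gene that differs little may be near the detection limit, and the line's defining markers cannot be checked as levels. With 1 array a group there is no replicate check and no test. Each difference describes these arrays, and an SD is given over the probe sets of 1 gene, which is not replicate error. The vehicle array spread more widely than the treated arrays (SD 0.494 against 0.260 and 0.241 over all probe sets). Labelling spikes, control transcripts mixed into the RNA ahead of labelling, were 2.03 and 2.04 higher on the estradiol and ERα17p arrays than on the vehicle array, and hybridisation spikes, added later, were at -0.74 and -0.93. Between the treated arrays, 18S ribosomal RNA was 0.53 higher with ERα17p than with estradiol (median of 3 probe sets; 0.67 and 0.11 above vehicle with ERα17p and estradiol), the labelling spikes differed by 0.00 and the hybridisation spikes by -0.15. The part of these offsets in any of the differences was not tested.

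CA12 was the target gene with the largest difference from vehicle under both agents, at 1.15 on the log2 scale (2.22-fold) for estradiol and 1.01 (2.02-fold) for ERα17p. GREB1 was the only other target at or past 1.5-fold, at 0.67 (1.59-fold) for estradiol, and 0 of the 10 were 1.5-fold lower under either agent. Among all 19775 genes, the shares past 1.5-fold with estradiol were 10.6% on the high side and 8.42% on the low side, and with ERα17p 9.56% and 8.82%. The counts of 2 and 1 of 10 are near those shares, so they do not set the targets apart from other genes. The median of the 10 targets was 0.12 for estradiol and 0.08 for ERα17p, beside 0.00 for all genes in both. Set against each other, 0 of the 10 differed by 1.5-fold between the treated arrays, where 1.29% of all genes were higher and 2.04% lower with the peptide. Both differences from vehicle use the same vehicle array, so they are given side by side and not correlated.

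**Figure D1:**
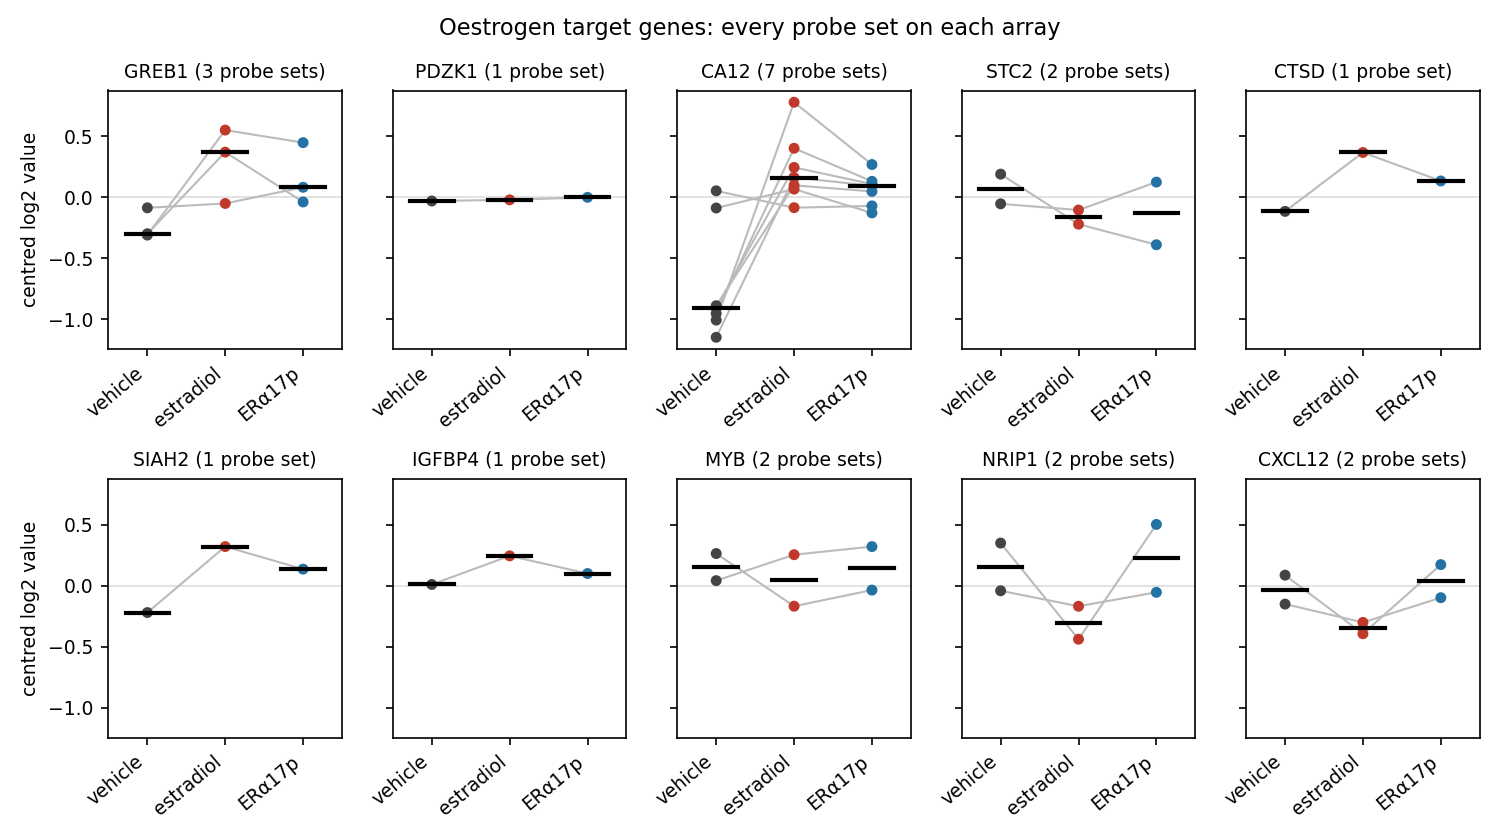
Centred log2 values (vertical axis) of every probe set of the 10 target genes on the vehicle, estradiol and ERα17p arrays (horizontal axis). Grey lines join the values of 1 probe set and black bars are the gene's median on that array; 5 of the 7 CA12 probe sets lay between -1.15 and -0.89 on the vehicle array and between 0.05 and 0.78 on the treated arrays.

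CA12 encodes carbonic anhydrase XII, a membrane enzyme that hydrates carbon dioxide outside the cell and a well-known marker of ERα-positive breast tumours. Probe set 210735_s_at was at -1.01 with vehicle, 0.78 with estradiol and 0.27 with ERα17p. Probe set 204508_s_at was at -0.95, 0.40 and 0.13, and 203963_at at -0.91, 0.25 and 0.11, in the same order of groups. In these probe sets vehicle was low and the treated arrays lay above the reference level, with estradiol the higher. The probe sets 215867_x_at (-1.15, 0.16 and 0.10) and 214164_x_at (-0.89, 0.10 and 0.05) repeated that order. The remaining pair did not share it: 204509_at was at -0.09, 0.07 and -0.13, and 241230_at at 0.05, -0.08 and -0.07.

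For estradiol, 6 of 7 CA12 probe sets lay above vehicle and 5 passed 1.5-fold, from -0.14 to 1.79 (SD 0.689 over the probe sets). For ERα17p, 5 of 7 lay above vehicle and 5 passed, from -0.12 to 1.28 (SD 0.594). Genes with 7 probe sets, 171 in number, had a median range of 1.35 and 1.23 in these comparisons, narrower than the span of the CA12 probe sets. Of the 5 high probe sets 4 carry an _s or _x in their name, which marks probes that match several transcripts, of 1 gene or of related genes. Over the 3 CA12 probe sets without such a suffix the median was 0.16 for estradiol and -0.04 for ERα17p, so the call ended for both and the direction turned for the peptide. Measured from the reference level, not from vehicle, CA12 was at 0.16 with estradiol and 0.10 with ERα17p, but which arrays set that level is unknown. A larger absolute difference from vehicle than that of CA12 was held by 4.04% of all genes for estradiol and by 5.61% for ERα17p. By distance over the 3 arrays, the genes most like CA12 were FTSJ1 and ZMYM6, at Euclidean distances of 0.0044 and 0.0053. With each gene centred over 3 arrays and 19775 genes searched, a close neighbour is likely for any gene. No shared response is therefore read from these genes, nor from the neighbours of GREB1 and SIAH2 given below.

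GREB1, named for growth regulation by oestrogen in breast cancer, encodes a chromatin-bound cofactor of ERα. Its probe set 205862_at was at -0.31 with vehicle, 0.55 with estradiol and 0.45 with ERα17p. Probe set 210562_at was at -0.30, 0.37 and -0.04, and 210855_at at -0.09, -0.05 and 0.08. The first pair was highest on the estradiol array, and the third differed by 0.17 at most in any comparison. GREB1 was thus 0.67 higher for estradiol (SD 0.432, n = 3 probe sets, 2 of them past 1.5-fold) and 0.26 higher for ERα17p (SD 0.317, 1 of 3 past). In ERα17p minus estradiol GREB1 was at -0.10, with its probe sets at -0.10, -0.41 and 0.13. The medians from vehicle both rest on 210562_at, and this one on 205862_at. With the mean of the probe sets in place of the median, the estradiol difference was 0.52 and the call ended. PSG3 and ZNF280C, each with 1 probe set, lay closest to GREB1 over the 3 arrays, at distances of 0.0026 and 0.0115. The paralogue GREB1L differed from vehicle by -0.01 and -0.02. The 3 GREB1L probe sets ran from -0.31 to 0.34 for estradiol and from -0.84 to 0.69 for ERα17p.

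NRIP1 encodes RIP140, a corepressor that binds liganded nuclear receptors and limits oestrogen signalling. It was the lowest of the 10 on the estradiol array relative to vehicle, at -0.46 (SD 0.468, n = 2 probe sets), short of 1.5-fold. Probe set 202600_s_at was at 0.35 with vehicle, -0.44 with estradiol and 0.50 with ERα17p, and 202599_s_at at -0.04, -0.17 and -0.05. Both were lowest with estradiol, but the second only narrowly. NRIP1 had the largest difference of the 10 between the treated arrays, 0.53 higher with the peptide (SD 0.584, its probe sets at 0.94 and 0.11), a size that 4.70% of all genes exceeded and about that of the 18S ribosomal RNA offset between these arrays (0.53). Both NRIP1 probe sets carry an _s, so none was left without them. Of its partners, the corepressors CTBP1 and CTBP2 differed from vehicle by -0.07 and -0.09 with estradiol and by -0.09 and -0.05 with ERα17p. These are medians, and the 6 CTBP2 probe sets ran from -1.36 to 0.84 for estradiol and from -1.07 to 0.76 for ERα17p.

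MYB encodes a transcription factor of progenitor cells whose transcript elongation estradiol releases in ERα-positive breast cancer cells. Its probe sets went opposite ways: 204798_at was at 0.26, -0.17 and -0.03 with vehicle, estradiol and ERα17p, and 215152_at at 0.04, 0.26 and 0.32. Their median differences from vehicle were -0.11 (SD 0.455) and -0.01 (SD 0.409), so no direction can be read for MYB. The paralogue MYBL1 differed from vehicle by 0.01 and 0.05. MYBL2, a regulator of cell cycle genes with 1 probe set, was at 1.18 with vehicle and at -0.06 and -0.12 with the treatments, which gives differences of -1.23 and -1.30.

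CTSD and SIAH2 act in protein turnover, and each was read by 1 probe set. CTSD, the lysosomal protease cathepsin D, was at -0.12 with vehicle, 0.37 with estradiol and 0.13 with ERα17p, a difference of 0.48 (1.40-fold) for estradiol and 0.25 for ERα17p. SIAH2, a ubiquitin ligase that also targets the prolyl hydroxylases of hypoxia sensing, was at -0.22, 0.32 and 0.14, a difference of 0.54 (1.45-fold) and 0.36. Both genes were lowest with vehicle and highest with estradiol, and both stayed short of 1.5-fold. Sizes this large or larger were common: 25.2% and 21.4% of all genes had a larger absolute difference than CTSD and SIAH2 for estradiol. MBTPS1 and IBTK were the genes closest to SIAH2 over the arrays, at distances of 0.0045 and 0.0055. Among related genes, cathepsin L (CTSL) was 1.19 and 1.21 higher than vehicle with estradiol and ERα17p, cathepsin S (CTSS) 0.94 and 0.95 higher, and cathepsin H (CTSH) 0.79 and 0.73 higher, while cathepsin B (CTSB) was at -0.03 and 0.33. SIAH1 was 0.50 and 0.52 higher. The prolyl hydroxylase EGLN1 was 0.90 and 1.08 higher.

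The secreted targets IGFBP4, STC2 and CXCL12 showed small differences in mixed directions. IGFBP4, which binds insulin-like growth factors, was at 0.01, 0.25 and 0.10 with vehicle, estradiol and ERα17p, so it differed from vehicle by 0.23 and 0.09. STC2, a stanniocalcin that inhibits the IGFBP protease PAPPA, was at 0.19, -0.22 and -0.39 in probe set 203438_at and at -0.05, -0.10 and 0.12 in 203439_s_at. Its median difference was -0.23 for estradiol (SD 0.254) and -0.20 for ERα17p (SD 0.535), and for the peptide its probe sets differed in sign. The paralogue STC1 was 1.17 and 1.03 higher than vehicle, with a median of -0.95 on the vehicle array against 0.14 and 0.08.

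CXCL12, the chemokine also called SDF-1, was at 0.09, -0.39 and 0.17 with vehicle, estradiol and ERα17p in probe set 209687_at and at -0.15, -0.30 and -0.10 in 203666_at. Both probe sets were lowest with estradiol and highest with the peptide. The gene differed from vehicle by -0.31 (SD 0.233) for estradiol and by 0.07 (SD 0.024) for ERα17p, and was 0.38 higher with the peptide than with the hormone (SD 0.258), a size that 11.9% of all genes exceeded. Its receptors CXCR4 and ACKR3 differed from vehicle by -0.20 and 0.11 with estradiol, and by -0.49 and 0.30 with ERα17p. The 3 CXCR4 probe sets ran from -1.14 to 0.03 for estradiol and from -1.11 to -0.34 for ERα17p. Those of ACKR3 ran from -0.06 to 0.22 and from -0.04 to 0.66.

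PDZK1, a scaffold protein that tethers membrane transporters and a strongly oestrogen-induced gene of ERα-positive cells, had the smallest differences from vehicle for estradiol. Its single probe set was at -0.03 with vehicle, -0.02 with estradiol and exactly 0 with ERα17p. The differences from vehicle were 0.01 and 0.03, and 97.3% and 92.5% of all genes had a larger absolute difference. The scavenger receptor SCARB1, which PDZK1 anchors in liver, differed from vehicle by -0.80 with estradiol and -0.90 with ERα17p. Its 5 probe sets ran from -1.09 to 0.32 and from -1.01 to 0.18. The scaffold NHERF1 was at -0.42 and -0.33.

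**Figure D2:**
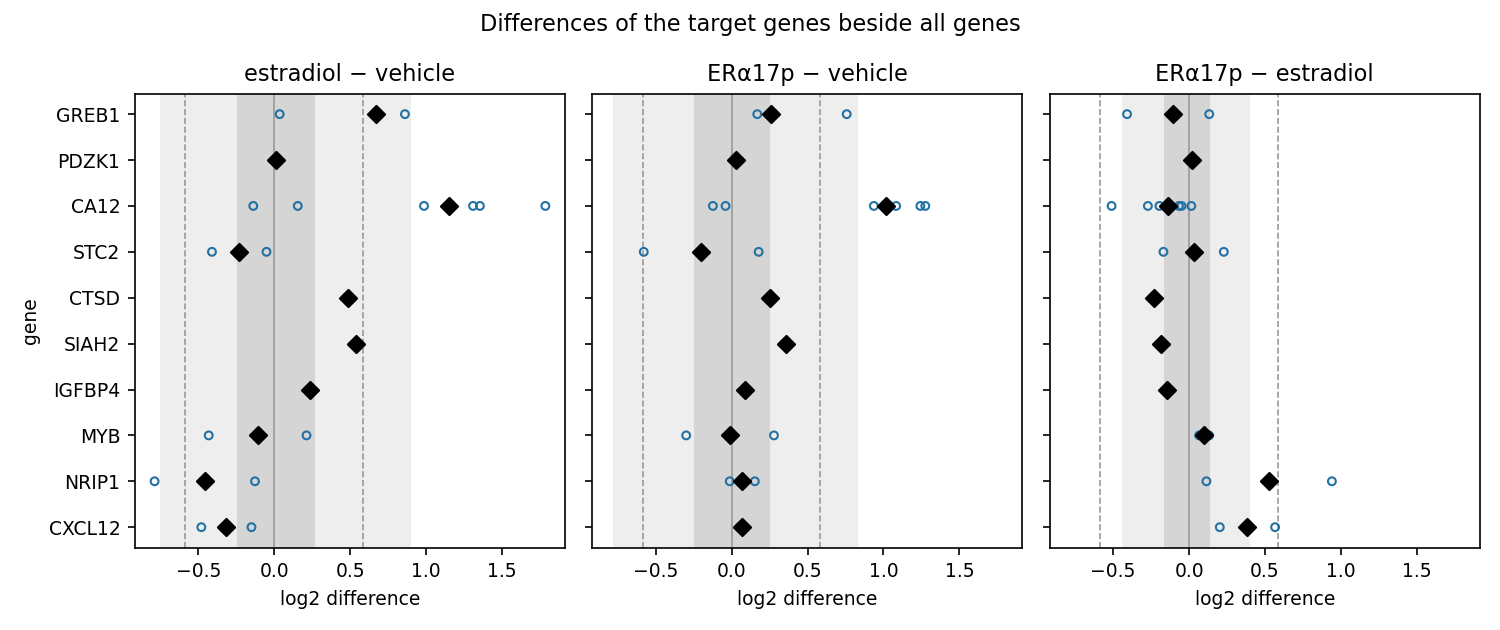
Log2 differences (horizontal axis) of the 10 target genes (vertical axis) for estradiol minus vehicle, ERα17p minus vehicle and ERα17p minus estradiol. Diamonds are the gene's median over probe sets, open circles its probe sets, dashed lines mark 1.5-fold, and the dark and light bands hold the middle 50% and 90% of all 19775 genes; only the CA12 diamond lies beyond the light band in the comparisons with vehicle.

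Taking the gene medians on each array, 5 of the 10 targets (GREB1, CA12, CTSD, SIAH2 and IGFBP4) stood lowest with vehicle, then ERα17p, and highest with estradiol. That order was held by 21.9% of the 19480 genes with 3 distinct values. STC2 and MYB had the opposite order, with estradiol lowest and vehicle highest (18.3% of genes), NRIP1 and CXCL12 ran from estradiol over vehicle to ERα17p (10.4%), and PDZK1 ran from vehicle over estradiol to ERα17p (18.2%). The estradiol array was highest for 5 of the 10 and lowest for 4, beside 32.5% and 28.8% of all genes, and ERα17p was the middle array for 7, beside 40.2%. Several steps in these orders are small. The medians with estradiol and ERα17p were 0.16 and 0.10 for CA12 and -0.16 and -0.13 for STC2. Those with vehicle and ERα17p were 0.15 and 0.14 for MYB, and PDZK1 was at -0.03 with vehicle and -0.02 with estradiol. Taken per probe set, the median CA12 difference of ERα17p minus estradiol was -0.14, with 6 of 7 probe sets lower with the peptide. Of the 22 probe sets, the estradiol array was farthest from the reference level in 9, vehicle in 8 and ERα17p in 5, while over all named probe sets these arrays were farthest in 28.4%, 45.5% and 26.2%.

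The regions just upstream of the RefSeq transcription starts were searched for receptor-linked motifs, the kinds of site named above for the hormone-bound receptor. RefSeq promoters on GRCh38.p14 were matched for 9 of the 10 genes, all but GREB1, and the 250 bases before the start were read on both strands. The full oestrogen response element, which is GGTCA followed by any 3 bases and then by TGACC, was in 0 of the 9 and in 0.044% of 27305 promoters of the same length. A single arm of it, GGTCA or its reverse complement TGACC, was in 4 of the 9 and in 33.1% of all promoters; each full element also counts here. The Sp1 box GGGCGG, also read as its reverse complement, was in 6 of the 9 and in 42.3% of promoters. The AP-1 element TGANTCA was in 0 of the 9 and in 6.60%. These shares do not set the targets apart, and a match is a description of letters, not of receptor binding. With 0.044% of promoters holding the full element, 0 of the 9 was nearly fixed in advance. Elements farther away than 250 bases and inexact matches were not searched.

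The 4 promoters that hold a single arm are printed because their genes cover nearly the whole range of differences for estradiol, from CA12 (1.15) over CTSD (0.48) and PDZK1 (0.01) to CXCL12 (-0.31). Each is written 5′ to 3′ on the gene's own strand, which is the minus strand for all 4, with the last base next to the transcription start and GGTCA or TGACC in capitals. Their positions are chr15:63381847-63382096 for CA12, chr11:1763928-1764177 for CTSD, chr1:145707401-145707650 for PDZK1 and chr10:44385098-44385347 for CXCL12. CTSD holds 3 arms and 5 Sp1 boxes, CXCL12 holds 1 and 3, and CA12 and PDZK1 hold 1 arm each and no Sp1 box. In both CTSD and CXCL12, a pair of neighbouring Sp1 boxes shares a base and was counted as separate boxes.
CA12: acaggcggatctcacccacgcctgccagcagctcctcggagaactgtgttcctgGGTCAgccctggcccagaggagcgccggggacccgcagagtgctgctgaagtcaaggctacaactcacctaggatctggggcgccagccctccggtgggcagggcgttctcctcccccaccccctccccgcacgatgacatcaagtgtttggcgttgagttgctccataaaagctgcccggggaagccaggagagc
CTSD: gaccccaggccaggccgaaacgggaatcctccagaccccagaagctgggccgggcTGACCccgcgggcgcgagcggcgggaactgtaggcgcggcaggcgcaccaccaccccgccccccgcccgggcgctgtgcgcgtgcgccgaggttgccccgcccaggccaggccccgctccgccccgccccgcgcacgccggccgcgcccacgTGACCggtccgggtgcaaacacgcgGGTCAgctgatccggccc
PDZK1: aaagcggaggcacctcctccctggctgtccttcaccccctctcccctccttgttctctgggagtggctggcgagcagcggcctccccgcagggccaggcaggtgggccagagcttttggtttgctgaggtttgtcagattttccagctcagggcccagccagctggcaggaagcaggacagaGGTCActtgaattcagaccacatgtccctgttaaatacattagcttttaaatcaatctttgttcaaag
CXCL12: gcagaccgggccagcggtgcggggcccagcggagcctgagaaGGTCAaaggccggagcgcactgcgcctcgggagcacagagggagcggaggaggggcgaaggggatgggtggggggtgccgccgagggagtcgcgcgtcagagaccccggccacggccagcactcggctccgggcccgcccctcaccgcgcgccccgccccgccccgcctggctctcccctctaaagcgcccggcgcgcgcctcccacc

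Beyond the 10 genes, 30 other genes known to be oestrogen-induced were measured of 32 listed. With estradiol 7 of the 30 passed 1.5-fold above vehicle and 1 below, with a median of 0.09, and with ERα17p 5 passed above and 0 below, with a median of 0.10. Among all genes 10.6% passed above and 8.42% below with estradiol, and 9.56% and 8.82% with ERα17p. Over the 22 of these genes that have unsuffixed probe sets, 3 were past 1.5-fold with estradiol in either direction, beside 8 of all 30. That fall can mix genes that left the list with calls that changed. CYP1B1, an enzyme of oestrogen hydroxylation, was 3.16 and 3.79 higher, the zinc transporter SLC39A6 1.04 and 1.59 higher, and the EGFR ligand TGFA 1.02 and 1.49 higher. All of these were low on the vehicle array, at -3.23, -0.66 and -1.15. The 4 CYP1B1 probe sets ran from -0.21 to 4.61 for estradiol and from 0.01 to 4.87 for ERα17p. Medians taken per comparison need not subtract: ERα17p minus estradiol was 0.38 for CYP1B1, 0.27 for SLC39A6 and -0.14 for TGFA. Cyclin D1 (CCND1), a regulator of G1, was the gene past 1.5-fold on the low side for estradiol, at -0.89, and was at -0.46 for ERα17p. The progesterone receptor PGR, a standard clinical marker of ERα activity, differed from vehicle by 0.15 and 0.03, MYC by 0.46 and 0.37, and IRS1, an adaptor of insulin-like growth factor signalling, by 0.54 and 0.83. The 3 IRS1 probe sets ran from -0.96 to 0.87 for estradiol and from -0.77 to 0.89 for ERα17p. PGR and MYC were chosen after their values were seen.

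Of 9 measured genes that estradiol lowers in ERα-positive cells, 3 passed 1.5-fold above vehicle and 0 below with estradiol (median 0.33), and 4 passed above and 1 below with ERα17p (median 0.35), where the shares of all genes were the 10.6% and 8.42%, and the 9.56% and 8.82%, given above. With unsuffixed probe sets, which 7 of the 9 have, 1 gene was past 1.5-fold in either direction with estradiol and 2 with ERα17p. CCNG2, an unconventional cyclin of resting cells, was 1.87 and 1.64 higher, the interleukin receptor IL1R1 1.53 and 1.33 higher, and the matrix protein EFEMP1 1.47 and 1.45 higher. The 5 CCNG2 probe sets ran from -0.08 to 3.74 for estradiol and from 0.13 to 3.45 for ERα17p. Those of IL1R1 ran from 0.26 to 2.80 and from 0.27 to 2.39, and those of EFEMP1 from 0.25 to 2.07 and from 1.02 to 2.08. ERBB2, the growth factor receptor HER2, was at -0.03 with estradiol and -0.77 with ERα17p, but at -0.27 in ERα17p minus estradiol. Between the treated arrays 0 of the 30 induced and 0 of the 9 repressed genes passed 1.5-fold. Genes on both lists that stood high against vehicle did so beside labelling spikes 2.03 and 2.04 higher, and the spikes' part was not tested.

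Among 28 measured partners and paralogues, 8 passed 1.5-fold above vehicle and 2 below with estradiol (median 0.09), and 9 and 2 with ERα17p (median 0.24), beside 10.6% and 8.42%, and 9.56% and 8.82%, of all genes. IGFBP7, a matrix-associated member of the IGFBP family, was 0.81 and 1.48 higher, and PAPPA, the protease that cleaves IGFBP4, 0.64 and 0.71 higher. In ERα17p minus estradiol IGFBP7 was at -0.04, since each median can rest on a different probe set. The 11 PAPPA probe sets ran from -0.45 to 2.81 for estradiol and from -0.37 to 3.40 for ERα17p. IGFBP1 was at 0.43 and 0.82, IGFBP2 at -0.44 and -0.51, and IGFBP3 at -0.40 and 0.10; IGFBP5 was at 0.08 and -0.02. Of 13 measured receptors and co-regulators, 1 passed above and 1 below with estradiol and 2 and 1 with ERα17p, counts near those shares. ESR1 (9 probe sets) differed from vehicle by -0.08 and -0.14, ESR2 by -0.14 and 0.08, and GPER1 by 0.28 and 0.09. By gene median the receptors themselves thus stayed within 1.5-fold. The ESR1 probe sets ran from -0.56 to 0.02 for estradiol, and from -0.65, which is past 1.5-fold, to 0.31 for ERα17p. Those of ESR2 ran from -0.29 to 0.33 and from -0.13 to 0.24, and those of GPER1 from 0.15 to 0.41 and from -0.01 to 0.19. PELP1, a scaffold that links ERα to kinases, was at -0.79 and -0.94, and the coactivator NCOA1 0.71 and 0.83 higher. Of 7 luminal markers, 0 passed above and 1 below with each agent, and of 7 markers of mesenchymal-like lines 2 passed above with estradiol, 3 with ERα17p and 0 below with either. With 7 genes a list, beside 10.6% and 9.56% of all genes passing above, no direction of the markers is read from these counts.

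**Figure D3:**
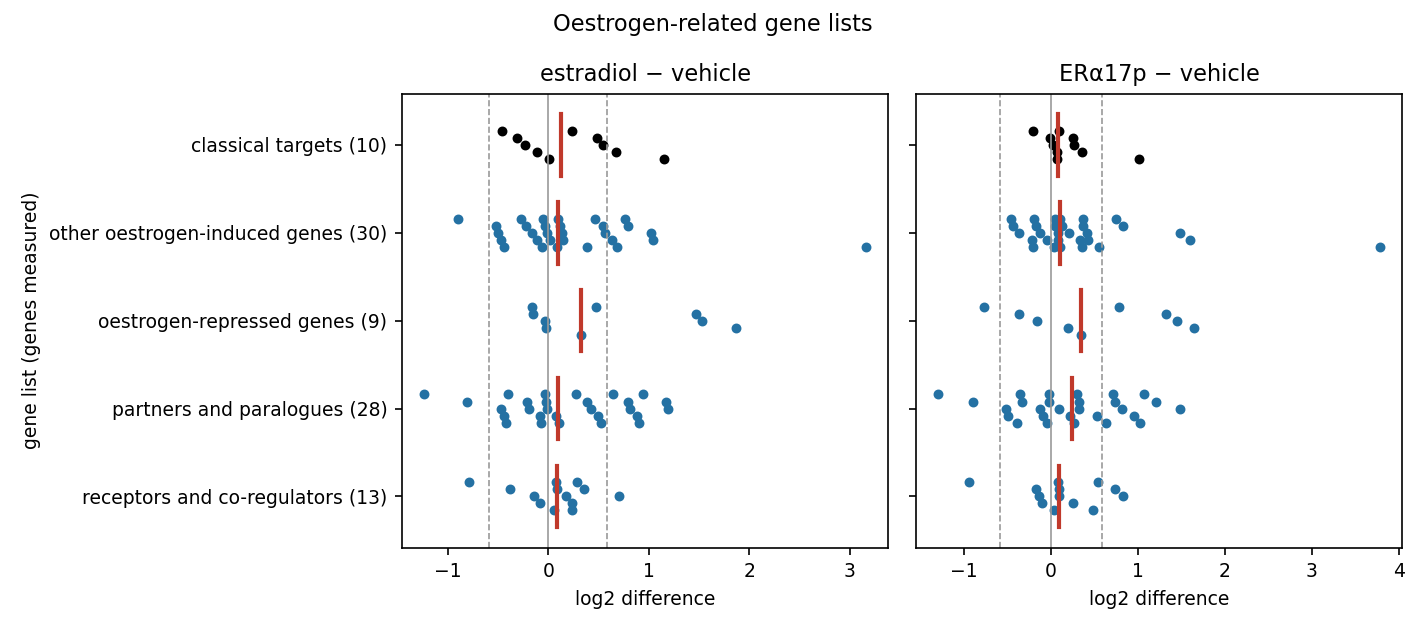
Log2 differences from vehicle (horizontal axis) of each measured gene in 5 gene lists (vertical axis), for estradiol at left and ERα17p at right. Each point is 1 gene, red bars are list medians and dashed lines mark 1.5-fold; the medians lie between 0.08 and 0.35, and the CYP1B1 point at 3.16 and 3.79 is the farthest out.

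**Figure D4:**
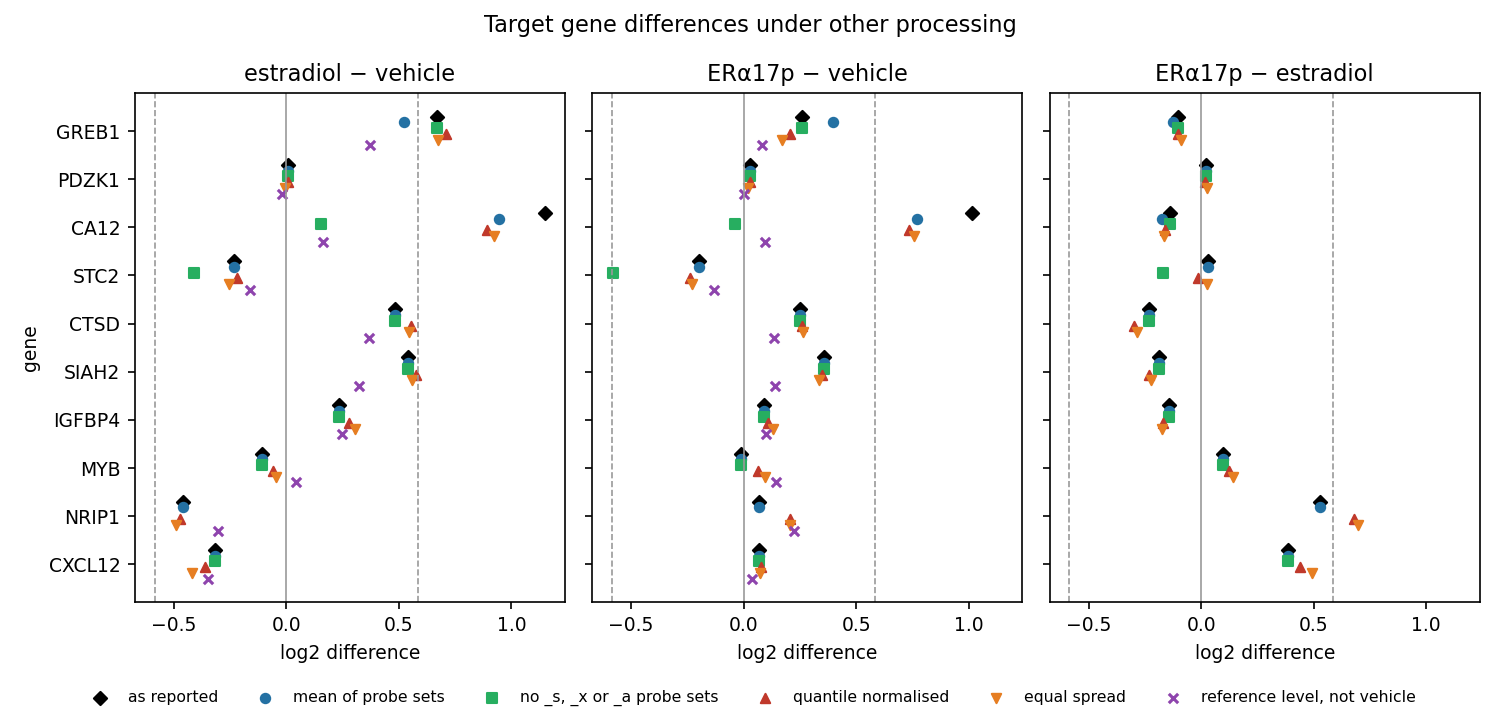
Log2 differences (horizontal axis) of the 10 target genes (vertical axis) as reported and under 5 other ways of processing, with dashed lines at 1.5-fold. CA12 moves the most, from 1.15 to 0.16 for estradiol and from 1.01 to -0.04 for ERα17p over probe sets without a suffix. SIAH2 and CTSD stay between 0.32 and 0.58 for estradiol under every setting drawn. Each has 1 unsuffixed probe set, so the mean and the unsuffixed setting could not move them.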

How the data were processed

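Gene expression was measured on 1 Affymetrix HG-U133 Plus 2 array for each of 3 groups. The submitters' processing notes name RMA without a version; since its output is log2, the deposited values are read as log2 values. In the deposited table every probe set is also centred on a level that is not described: the array medians are 0, and between 7.08% and 8.54% of values on an array are exactly 0. Differences between arrays are left untouched by the centring. Symbols came from the platform annotation, and a gene's difference is the median over its probe sets with 1 symbol; Entrez identifiers of 19734 of 19775 genes were found in the RefSeq table of GRCh38.p14. Of the 54675 probe sets, 1801 with several symbols were not used. Genes past 1.5-fold were counted over all genes with Python 3.11.15 and pandas 2.3.3, after the calculation was tested on simulated data. The simulation moved every probe set of a gene well past 1.5-fold, with noise from the differences between the treated arrays. It therefore checked the calculation, not how well differences from vehicle are found. No test was possible with 1 array a group, and precision is limited by the number of arrays. Besides the 10 targets, the text names up to 4 genes per list and comparison with the largest absolute difference, direct paralogues and receptors of targets, ESR1, ESR2 and GPER1. It also names the 2 genes nearest to each of the 3 targets with the largest mean difference from vehicle. Partners and related genes named beside a target outside this rule (CTBP1, CTBP2, SCARB1, NHERF1, CTSB, CTSH) were chosen after their values were seen. Members and lists were chosen with earlier results of these data known. Genes of the lists are given as medians, and the probe sets behind a median can differ widely in size and in sign. The alternatives were the mean of probe sets, probe sets without an _s, _x or _a suffix, quantile normalisation, equal spread of the arrays, a 2-fold limit, leaving out the farthest target, and the reference level in place of vehicle. Quantile normalisation was applied to the deposited centred values, not to intensities. Like equal spread, it therefore brings the arrays to a common spread, and these alternatives are not independent.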

Additional observations from a re-analysis of the deposited data

How the results depend on the processing

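The counts of targets at least 1.5-fold higher rest on CA12 and GREB1. For estradiol the count of 2 became 1 with the mean of probe sets, with only unsuffixed probe sets, at 2-fold and without CA12, and 0 against the reference level; for ERα17p the count of 1 became 0 with only unsuffixed probe sets, against the reference level and without CA12. CA12 for ERα17p changed sign to -0.040 with unsuffixed probe sets. Smaller differences changed sign too. MYB did so for ERα17p in 3 of 5 alternatives and for estradiol in 1 of 5. PDZK1 did so for estradiol in 2 of 5, and STC2 in ERα17p minus estradiol in 2 of 4. Between the treated arrays 1 target, NRIP1, passed 1.5-fold (0 as reported) after quantile normalisation (0.68) and with equal spread (0.70), where the share of all genes that passed above was 3.25% and 3.58% in place of 1.29%. No target was 1.5-fold lower in any comparison or setting. Of the other lists, counts past 1.5-fold in either direction for estradiol moved as follows: other induced genes from 8 to 3 (unsuffixed) and 3 (2-fold), repressed genes from 3 to 1 (unsuffixed), partners from 10 to 3 (2-fold), and receptors and co-regulators from 2 to 1 (quantile), 0 (equal spread) and 0 (2-fold). For ERα17p they moved at 2-fold from 5 to 3, 5 to 3, 11 to 5 and 3 to 0 in the same order of lists, and repressed genes from 5 to 2 with unsuffixed probe sets. Between the treated arrays, induced genes went from 0 to 2 after quantile normalisation and with equal spread, and partners from 0 to 2 and 1. In all, 74 of these counts stayed within 1.5 times and 26 did not. The 74 include many counts of 0 that stayed at 0, among them every count of targets 1.5-fold lower. The tally therefore says little of how steady the other counts were. Counts over unsuffixed probe sets also cover fewer genes of each list. Against the reference level 1.28% of all genes were 1.5-fold higher and 0.516% lower on the estradiol array, where 10.6% and 8.42% were against vehicle. No paired analysis was possible because each group has 1 array. Expression levels are unknown, so a limit on dim probe sets could not be set.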
